A study of Mus musculus with 6 samples.

Results

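The genes described here are 10 genes that mark endothelial cells, the cells that line blood vessels: Cldn5, Pecam1, Cdh5, Kdr, Flt1, Tek, Tie1, Esam, Emcn and Eng. They were chosen by name and not by their measured values, although earlier results of these data were known. They represent 10 of the 34836 gene names and 13 of the 55681 probes on the array. Their RNA was measured in 2 fractions of cells from neonatal mouse cerebellum, which the study compared in order to tell glial precursors apart. A+/G+ cells carry both ACSA-2, the surface antigen of the sodium pump subunit encoded by Atp1b2, and GLAST, the glutamate transporter encoded by Slc1a3, whereas A-/G+ cells carry GLAST without ACSA-2. The labels give wild-type mice of strain CD1 on postnatal days 1 to 3 for all 6 samples, while the methods of the study give a C57BL/6 background and a younger age. There were 3 samples per fraction, each of 50000 cells pooled from animals of either sex, with 1 array per sample. Both fractions were enriched with magnetic beads but not pure, and the study reports a higher share of the wanted cells for A+/G+ than for A-/G+. It counted the rare cells with ACSA-2 but without GLAST as part of A+/G+. A+/G+ cells were taken with beads against ACSA-2 alone, and A-/G+ cells were taken with beads against GLAST after depletion of cells that carry L1CAM, ACSA-2, CD45, PSA-NCAM or Ter119. The methods name no step that removes endothelial cells from either fraction. Which cells of a fraction carried the endothelial RNA was not tested, and a smaller number of endothelial cells cannot be told apart from less RNA per endothelial cell.

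Endothelial cells of the brain form a continuous lining sealed by tight and adherens junctions, which is the basis of the blood-brain barrier. Their growth and stability depend on vascular endothelial growth factor (VEGF), read by the receptor tyrosine kinases KDR and FLT1, and on angiopoietins, read by TEK, with the related TIE1 as its partner. In the neonatal cerebellum vessels are still growing into the tissue, and endothelial cells lie close to pericytes and to the end feet of astroglia.

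Values are log2 signals of single arrays after quantile normalization, a level is the signal of the brightest probe of a gene, and differences are means of A+/G+ minus means of A-/G+ on the log2 scale, tested with limma with Benjamini-Hochberg adjustment over all probes. The sort was visible in its target, since the level of Atp1b2 was 12.97, 12.70 and 12.81 in the A+/G+ samples and 10.86, 10.82 and 10.31 in the A-/G+ samples (difference 2.16, standard error 0.18, limma adjusted p = 0.0073). Slc1a3 was bright on all 6 arrays, at 13.26, 13.31 and 13.61 in A+/G+ and at 14.85, 14.92 and 14.00 in A-/G+ (difference -1.19, limma adjusted p = 0.0733). The arrays themselves differed in brightness. The 75th percentile of the intensity before normalization was 329 to 332 in A+/G+ and 55.9, 112 and 250 in replicates 1, 2 and 3 of A-/G+, and 26476 to 26653 probes were well above background in A+/G+ compared with 18333, 21409 and 24726 in A-/G+. The arrays of a fraction shared their slide and scan, and the effects of slide and scan cannot be told apart from that of the fraction. The p-values measure the spread between these samples. With 3 arrays per fraction the smallest p of an exact permutation test is 0.1 (two-sided).

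The mean level of all 10 endothelial genes was higher in A+/G+ than in A-/G+, with differences from 0.76 for Pecam1 to 3.28 for Esam and a median of 1.48, compared with a median of -0.04 over all probes. Only Cdh5 passed the test in the comparison of all 6 arrays, 1 gene of 10, beside 4.65% of all probes called higher in A+/G+. The single arrays of the other 9 genes shared an order: signals were high on all A+/G+ arrays and low in replicates 1 and 2 of A-/G+, while replicate 3 of A-/G+ differed from the A+/G+ mean by -0.80 (Esam) to 0.29 (Tie1). Without that array, 7 of the 10 genes were called higher in A+/G+, beside 7.97% of all probes. The median difference was then 2.12, or 1.99 with the 4 genes whose remaining A-/G+ arrays were at background set to their limit. Replicate 3 was the highest A-/G+ array in 10 of 10 genes, so leaving it out had to raise every difference. These calls are therefore not separate support for a difference. Leaving out any other single array gave 0 or 1 calls. Replicates 1 and 2 of A-/G+ were both below the whole of A+/G+ in 10 of 10 genes, beside 18.7% of all probes. The 3 arrays of each fraction did not overlap in Pecam1, Cdh5 and Esam, 3 of 10 genes, beside 12.7% of all probes with A+/G+ wholly above A-/G+.

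**Figure D1:**
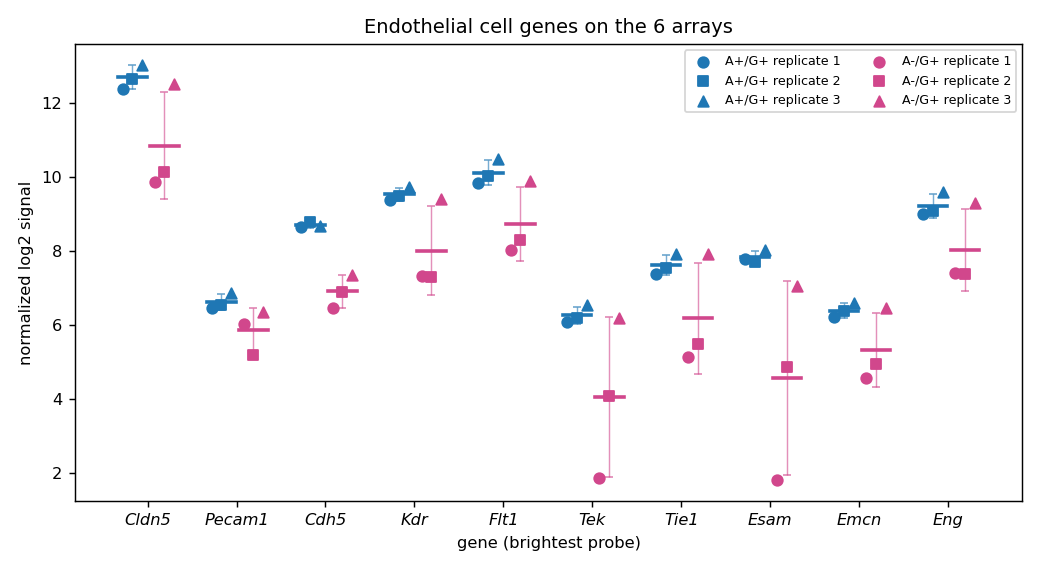
Normalized log2 signal of the brightest probe of each endothelial gene (vertical axis) for the 10 genes (horizontal axis), with 1 point per array, a line at the mean and a bar of 1 SD on either side for the 3 arrays of a fraction. The A-/G+ array of replicate 3, the triangle on the right of each gene, was the highest A-/G+ array in 10 of 10 genes, beside 26.1% of all probes. It lay within the range of the A+/G+ arrays in 7 of the 10 genes, a count for which the share of all probes was not computed. Levels are not comparable between genes, because each probe has a brightness of its own.

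Among the junction genes, Cldn5 and Cdh5 gave signals well above background on all 6 arrays. Cldn5 encodes the main claudin of brain endothelial tight junctions, and is read by 1 probe (chromosome 16, 18778046 to 18778105, mm9). Its level was 12.39, 12.67 and 13.04 in replicates 1, 2 and 3 of A+/G+, compared with 9.88, 10.15 and 12.52 in A-/G+. The A-/G+ arrays of replicates 1 and 2 were low, and replicate 3 overlapped with the A+/G+ arrays. The difference was 1.85 (standard error 0.77, limma adjusted p = 0.248), and without replicate 3 of A-/G+ it was 2.69 (standard error 0.23, limma adjusted p = 0.0108).

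Cdh5 encodes VE-cadherin, the adhesion molecule of endothelial adherens junctions. Its probe (chromosome 8, 106668159 to 106668218, mm9) read 8.65, 8.79 and 8.68 in A+/G+ and 6.47, 6.90 and 7.35 in A-/G+. All A-/G+ arrays were below all A+/G+ arrays, replicate 3 included. The A+/G+ arrays spanned 0.14 and the A-/G+ arrays 0.88 on the log2 scale, the narrowest range of the 10 genes in each fraction. The difference was 1.80 (standard error 0.24, limma adjusted p = 0.0182), with medians 3.45-fold apart, under the 4-fold limit that the study's methods add to the test. The adjusted p was above 0.05 when any 1 A+/G+ array was left out (0.0732, 0.0839 and 0.083 without replicates 1, 2 and 3), and 0.0579 without replicate 2 of A-/G+, while the difference itself was 1.76 to 1.83 without these arrays. Without replicate 3 of A-/G+ the difference was 2.03 (limma adjusted p = 0.009). Cdh5 was thus the gene in which replicate 3 of A-/G+ was farthest below the A+/G+ mean, by -1.36.

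Pecam1 and Esam were dim in A-/G+. Pecam1, which encodes the adhesion molecule CD31, read 6.45, 6.55 and 6.87 in A+/G+ and 6.03, 5.20 and 6.35 in A-/G+ (chromosome 11, 106540864 to 106540923, mm9). The arrays of the fractions did not overlap (exact two-sided permutation p = 0.1, the lowest possible here), but the difference was the smallest of the 10 genes, 0.76 (standard error 0.33, limma adjusted p = 0.27). Of the A-/G+ arrays, only replicate 3 was well above background, so without it A+/G+ was at least 2.01-fold higher (limma adjusted p = 0.124). The difference was 0.43 without replicate 2 of A-/G+ and 0.42 with normexp background correction.

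Esam encodes an adhesion molecule of endothelial tight junctions, which platelets also carry. Its level was 7.79, 7.70 and 8.03 in A+/G+, compared with 1.80, 4.85 and 7.04 in A-/G+ (chromosome 9, 37345795 to 37345854, mm9). The lowest A-/G+ arrays, replicates 1 and 2, were not well above background, and replicate 3 was, although it stayed below all A+/G+ arrays. The difference of 3.28 had the largest standard error of the 10 genes, 1.37 (limma adjusted p = 0.249). Without replicate 3, where the other A-/G+ arrays give only a limit, A+/G+ was at least 5.67-fold higher (limma adjusted p = 0.0623). The difference was 1.89 without replicate 1 of A-/G+ and 1.57 with normexp background correction.

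The VEGF receptors Kdr and Flt1 are read by more than 1 probe each. KDR carries most of the growth signal of VEGF, and FLT1 binds VEGF tightly and holds part of it back. The brightest Kdr probe, spotted 10 times on the array (chromosome 5, 76329309 to 76329368, mm9), read 9.39, 9.48 and 9.73 in A+/G+ and 7.31, 7.31 and 9.40 in A-/G+. The A-/G+ array of replicate 3 lay at the lower end of the A+/G+ arrays, far above the pair of other A-/G+ arrays. The difference was 1.53 (standard error 0.63, limma adjusted p = 0.245) with all arrays and 2.22 (standard error 0.12, limma adjusted p = 0.0062) without replicate 3 of A-/G+, the smallest adjusted p of the 10 genes in that comparison.

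The second Kdr probe gave a different picture. It lies 1086 bases away on the same strand (chromosome 5, 76330395 to 76330454, mm9) and read 8.56, 8.58 and 8.73 in A+/G+ and 8.59, 8.30 and 8.36 in A-/G+. The fractions overlapped, and replicate 3 of A-/G+ did not stand apart. The difference was 0.21 (standard error 0.10, limma adjusted p = 0.338), and 0.18 without replicate 3 of A-/G+. Both probes carry the name Kdr in the array's annotation, so the value for Kdr depends on the probe (0.87 for the mean of both), and why they disagree was not tested. The first 30 of the 60 bases of both probes are shown because the result for this receptor turns on which of them is read:
Kdr, brighter probe: ctactgtatcctttagaattttaacctata
Kdr, second probe: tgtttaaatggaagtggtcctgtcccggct

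For Flt1 the brightest probe (chromosome 5, 148373791 to 148373850, mm9) read 9.83, 10.04 and 10.49 in A+/G+ and 8.04, 8.29 and 9.88 in A-/G+. Replicate 3 of A-/G+ lay within the A+/G+ range. The difference was 1.38 (standard error 0.55, limma adjusted p = 0.227), and without that array 1.96 (standard error 0.24, limma adjusted p = 0.0185). A second Flt1 probe, 73081 bases away toward the start of the gene, read 8.68, 8.70 and 9.08 in A+/G+ and 6.34, 5.72 and 8.35 in A-/G+, with a difference of 2.02 (limma adjusted p = 0.183). It ordered the A-/G+ arrays in another way, with replicate 2 lowest, while replicate 1 was not well above background, but replicate 3 was again the highest. The third Flt1 probe, 92185 bases from the brightest, was at background on all 6 arrays, with means of 1.90 and 1.94.

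The angiopoietin receptor TEK and its relative TIE1 are related receptors, as are KDR and FLT1, and their probes read similar stretches. Placed over each other with an offset of 3 bases and no gaps, the probes of 60 bases were identical at 39 of 57 positions, or 68.4%. They are shown with the identical bases in capitals, since reads of a pair this similar could be mixed by cross-hybridization, which was not tested:
Tek: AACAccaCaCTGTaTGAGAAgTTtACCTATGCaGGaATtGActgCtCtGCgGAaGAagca
Tie1: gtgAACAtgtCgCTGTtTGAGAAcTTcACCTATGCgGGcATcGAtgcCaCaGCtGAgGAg
The Tek probe lies at chr4:94540624-94540683 on the plus strand and the Tie1 probe at chr4:118144132-118144191 on the minus strand of mm9.

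Tek read 6.07, 6.18 and 6.52 in A+/G+ and 1.86, 4.08 and 6.19 in A-/G+. Replicates 1 and 2 of A-/G+ were not well above background, and replicate 3 was within the A+/G+ range. The difference was 2.22 (standard error 1.13, limma adjusted p = 0.342), and without replicate 3 A+/G+ was at least 1.89-fold higher (limma adjusted p = 0.0638). The difference was 1.12 without replicate 1 of A-/G+ and 0.70 with normexp background correction. Tie1 read 7.39, 7.55 and 7.91 in A+/G+, compared with 5.13, 5.48 and 7.91 in A-/G+. Here replicate 3 of A-/G+ equalled the highest A+/G+ array to the second decimal, 0.29 above the A+/G+ mean, while replicate 1 was not well above background. The difference was 1.44 (standard error 0.80, limma adjusted p = 0.381), the largest adjusted p of the 10 genes, and 2.31 (standard error 0.21, limma adjusted p = 0.0117) without replicate 3. It was 0.92 without replicate 1 of A-/G+ and 0.90 with normexp.

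Eng encodes endoglin, the endothelial co-receptor for BMP9 and BMP10. Its probe (chromosome 2, 32537268 to 32537327, mm9) read 8.99, 9.09 and 9.59 in A+/G+ and 7.41, 7.37 and 9.31 in A-/G+. All 6 arrays were well above background, and replicate 3 of A-/G+ lay between the A+/G+ arrays. The difference was 1.19 (standard error 0.60, limma adjusted p = 0.336), and 1.83 (standard error 0.21, limma adjusted p = 0.017) without that array. Emcn encodes endomucin, a sialomucin of venous and capillary endothelium. It read 6.20, 6.37 and 6.59 in A+/G+ and 4.57, 4.94 and 6.47 in A-/G+ (chromosome 3, 137086389 to 137086448, mm9). Of the A-/G+ arrays only replicate 3 was well above background, and it lay within the A+/G+ range. The difference was 1.06 (standard error 0.53, limma adjusted p = 0.335), and without replicate 3 A+/G+ was at least 2.07-fold higher (limma adjusted p = 0.0155). The difference was 0.69 without replicate 1 of A-/G+ and 0.46 with normexp.

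**Figure D2:**
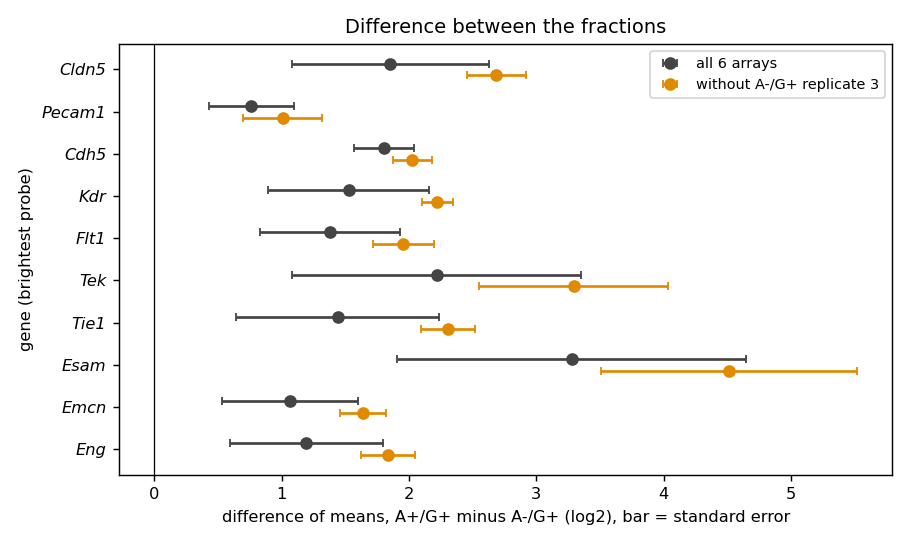
Difference of the mean log2 signal between the fractions, A+/G+ minus A-/G+ (horizontal axis), for the brightest probe of each endothelial gene (vertical axis), with bars of 1 standard error from limma; dark points use all 6 arrays and orange points leave out replicate 3 of A-/G+. The orange points lie to the right of the dark points for all 10 genes, with a median of 2.12 compared with 1.48. This shift follows from leaving out the A-/G+ array that was the highest in each gene.

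The endothelial genes varied more among the A-/G+ arrays than among the A+/G+ arrays, in 10 of 10 genes. The share of all probes with a wider range in A-/G+ was not computed, and the A-/G+ arrays also differed more in brightness before normalization. The range of the 10 genes over the 3 arrays had a median of 0.44 in A+/G+ (0.14 to 0.66) and of 2.01 in A-/G+ (0.88 to 5.24). The upper end, that of Esam, rests on signals at background. In the 5 genes that were well above background on all 6 arrays, Cldn5, Cdh5, Kdr, Flt1 and Eng, replicate 3 of A-/G+ exceeded the mean of replicates 1 and 2 by a median of 1.92 on the log2 scale, from 1.59-fold for Cdh5 to 5.67-fold for Cldn5. Over the 17944 probes of that kind the median of the same quantity was -0.04. An excess of more than 1 on the log2 scale was found in 4 of these 5 genes, compared with 3.11% of those probes. Where replicates 1 and 2 were not well above background, replicate 3 was at least 1.67-fold higher for Pecam1, 1.81-fold for Tek, 3.25-fold for Esam and 2.19-fold for Emcn. Set against the mean of the A+/G+ arrays, replicate 3 of A-/G+ differed by a median of -0.16.

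Within A+/G+ the spread was small but also shared. Replicate 3 was the highest A+/G+ array in 9 of the 10 genes, compared with 32.2% of all probes, and Cdh5, with replicate 2 highest, was the exception. The sum of the linear signals of the 10 genes, in which bright probes weigh most, was 8491, 9920 and 12717 in replicates 1, 2 and 3 of A+/G+, and 1754, 2052 and 8900 in those of A-/G+.

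The A-/G+ array of replicate 3 was also the brightest of its fraction before normalization, and its part in the level of the endothelial genes was not tested. In the 5 genes well above background on all 6 arrays, replicate 3 was the highest A-/G+ array as well, in 5 of 5, compared with 35.0% of probes of that kind. When arrays were aligned at the 75th percentile instead of quantile normalized, replicate 3 was the highest A-/G+ array in 10 of 10 genes, beside 17.6% of all probes. Replicates 1 and 2 were then below every A+/G+ array in 10 of 10, beside 12.5%. That shift moved the median difference of all probes to -1.02 and of the probes well above background on all arrays to -0.16, while the median of the 10 genes was 1.45 and Cdh5 was again the 1 gene called, beside 2.20% of all probes.

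**Figure D3:**
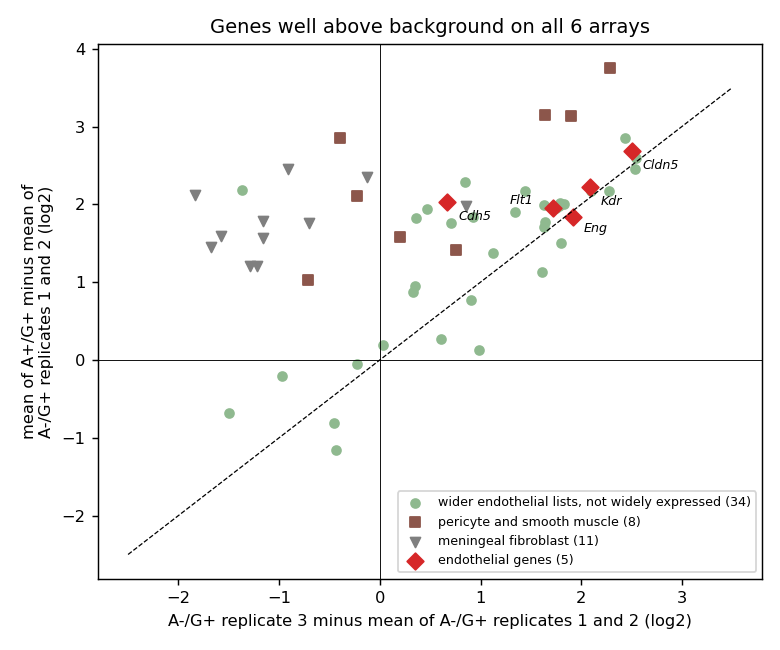
For genes well above background on all 6 arrays, the log2 signal of replicate 3 of A-/G+ (horizontal axis) and the mean of the A+/G+ arrays (vertical axis), both minus the mean of replicates 1 and 2 of A-/G+; on the dashed line both are equal. Of the 5 endothelial genes shown as diamonds, Cldn5, Kdr, Flt1 and Eng lie near the line and Cdh5 to its left, while meningeal genes lie mostly at negative values on the horizontal axis.

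The genes of the pathways around the 10 genes were followed in 7 lists of 113 genes. Of these, 11 were called in the direction of A+/G+ and 4 in that of A-/G+, beside 4.65% and 4.64% of all probes. Their median difference was 1.16, and the 70 genes not marked as widely expressed had a median of 1.39 with 7 and 4 calls. These 70 are not all genes of vessel cells, since they include ligands such as Gdf2. Without replicate 3 of A-/G+, 55 of the 113 genes were called higher in A+/G+, beside 7.97% of all probes. In that setting 10 were called higher in A-/G+, a count for which the share of all probes was not computed. The counts were sensitive to other single arrays too, with as few as 2 and 1 calls without replicate 2 of A+/G+.

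Of the ligands of the receptors among the 10 genes, Angpt2 was higher in A+/G+. Endothelial cells make this angiopoietin while vessels remodel. Unlike the receptors, Angpt2 was lowest on replicate 3 of A-/G+. Its level was 10.01, 10.29 and 10.04 in A+/G+ and 8.03, 7.84 and 6.56 in A-/G+ (difference 2.64, standard error 0.42, limma adjusted p = 0.0286). Vegfc, the ligand of the lymphatic receptor, was higher in A-/G+, with levels of 9.67, 9.75 and 9.71 compared with 10.66, 11.06 and 10.43 (difference -1.01, limma adjusted p = 0.0334). Neither replicate 3 nor any other array overlapped with the opposite fraction for Angpt2 or Vegfc. The brightest ligands that did not pass the test were Vegfa, the main ligand of KDR and FLT1 (difference 0.08, limma adjusted p = 0.793), and Angpt1, the activating ligand of TEK (difference -0.29, limma adjusted p = 0.69). Gdf2, which encodes the endoglin ligand BMP9, was called at least 5.87-fold higher in A-/G+ (limma adjusted p = 0.0082), with no A+/G+ array well above background. Its A-/G+ levels of 6.18, 6.21 and 5.99 were close to the lowest signal well above background, 5.72, on the dimmest of these arrays. The brightest gene of the endoglin list that did not pass was Smad5, a transducer of BMP signals (difference -0.03, limma adjusted p = 0.94).

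In the barrier and transcription factor lists the calls were all in the direction of A+/G+. Mfsd2a, the lipid transporter of the blood-brain barrier, read 12.09, 12.05 and 12.20 in A+/G+ and 9.79, 9.86 and 10.67 in A-/G+ (difference 2.01, limma adjusted p = 0.0179). Slc2a1, the glucose transporter GLUT1, differed by 1.92 (limma adjusted p = 0.0295), Itm2a by 1.96 (limma adjusted p = 0.0027) and Lrp8 by 0.77 (limma adjusted p = 0.0233). Abcg2, an efflux pump, also passed, which makes 5 of 15 genes, beside 4.65% of all probes called higher in A+/G+. For Itm2a replicate 3 of A-/G+ was level with the other A-/G+ arrays, 10.67 beside 10.67 and 10.51, whereas Slc38a5, the brightest transporter that did not pass (difference 1.75, limma adjusted p = 0.295), repeated the order of Cldn5 with 8.78, 9.47 and 11.66.

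Klf2, a transcription factor induced by blood flow, was the 1 of 19 endothelial transcription factors called (difference 1.78, limma adjusted p = 0.0154), beside 4.65% of all probes called higher in A+/G+. Epas1 was the brightest not called (difference 1.87, limma adjusted p = 0.0973). Of the 14 further junction genes 1 was called higher in A+/G+, beside the same share of all probes. It was Lsr, which encodes a protein of tricellular tight junctions (difference 1.52, limma adjusted p = 0.0277). Among 43 other surface and secreted proteins, Vcam1 (1.96, limma adjusted p = 0.0048), Adgra2 (1.70, limma adjusted p = 0.0216) and Ramp2 (0.83, limma adjusted p = 0.0268) were called higher in A+/G+. Calcrl (-2.17, limma adjusted p = 0.0424) and Gpihbp1 (-1.43, limma adjusted p = 0.0122) were called higher in A-/G+. Both were dim, at most 4.60 and 4.78 in A+/G+ and at most 6.62 and 6.01 in A-/G+. Of the 43 genes, 3 and 2 were thus called, beside 4.65% and 4.64% of all probes called in these directions. Egfl7, a secreted endothelial protein and the brightest of this list that did not pass (difference 1.17, limma adjusted p = 0.272), had levels of 10.56, 10.76 and 12.29 in A-/G+, again with replicate 3 highest. Each of the 15 calls in the 7 lists had the same direction after the 75th percentile shift, normexp background correction and in the authors' table, and 11 of the 15 were called in all of them. Vegfc, Abcg2, Lrp8 and Ramp2 lost the call after the 75th percentile shift, each at a limma adjusted p of 0.0501.

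The genes whose levels over the 6 arrays were most like those of the 5 endothelial genes well above background were Lmo2, Robo4, Cd34, Plxnd1 and Ets1. Likeness was measured as the root mean square distance on the log2 scale after each gene was centred on its own mean, over 6 arrays, which share the difference in brightness described above. The distances were 0.107 for Lmo2, 0.108 for Robo4, 0.13 for Cd34, 0.144 for Plxnd1 and 0.145 for Ets1, beside a median of 1.02 over the 10977 genes compared. The 5 endothelial genes themselves lay between 0.088 and 0.488 from their common pattern, so all 5 of the nearest genes were nearer to it than the farthest member, Cdh5. Robo4, a guidance receptor of endothelial cells, read 10.13, 10.07 and 10.52 in A+/G+ and 8.27, 8.30 and 10.04 in A-/G+. Like Eng it was low on replicates 1 and 2 of A-/G+ and high on replicate 3. This likeness follows from the way Robo4 was chosen and is not a separate result. All 5 were members of the wider lists, which hold 67 of the genes compared.

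Markers of other cells that touch vessels or could be carried along were read in 6 lists, and their part in the levels of the endothelial genes was not tested. Of each list the gene with the largest fitted difference is named. That rank changed after the 75th percentile shift or with normexp in all lists but that of red blood cells. The 14 genes of pericytes and vascular smooth muscle were higher in A+/G+ in their means, with a median difference of 2.13. Of the 14, 6 were called, beside 4.65% of all probes called in that direction. Of these 6, Pdgfrb, Rgs5, Anpep and Vtn were well above background on all 6 arrays, whereas Myh11 was at background on all of them and Des on 4 of them. The direction of Myh11 turned after the 75th percentile shift (0.91 to -0.37). The summed linear signal of the 14 genes was 16941 to 19818 in A+/G+ and 2542 to 3945 in A-/G+, without overlap. Kcnj8, a potassium channel subunit of pericytes (fitted difference 3.94, limma adjusted p = 0.0805, and 1.41 with normexp), read 6.86, 7.10 and 7.02 in A+/G+ and 1.93, 1.97 and 5.24 in A-/G+. Replicates 1 and 2 of A-/G+ were at background. Kcnj8 shared these low arrays with the endothelial genes, but replicate 3 stayed below the A+/G+ arrays.

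The 12 meningeal fibroblast genes were also higher in A+/G+, with a median of 2.04. Of them Lum, Pdgfra, Igf2, Slc6a13 and Foxc1 were called, 5 of 12, beside 4.65% of all probes. The summed signals of the 12 genes were 91566 to 111269 compared with 15271 to 44509. In contrast to the endothelial genes, replicate 3 was the lowest A-/G+ array in 10 of these 12 genes. The share of all probes with replicate 3 lowest was not computed. Slc6a13, a transporter of the leptomeninges, read 12.96, 13.25 and 12.87 in A+/G+ and 10.96, 10.20 and 9.67 in A-/G+ (difference 2.75, limma adjusted p = 0.0175). The meningeal genes and the endothelial genes thus ordered the A-/G+ arrays in opposite ways.

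None of the 10 red blood cell genes passed in limma with the main settings, while 6 did at an unadjusted p under 0.05, and 0 passed in the methods' t-test. With the filter on dim probes or with normexp 3 were called higher in A+/G+, with trend and robust variance 1, and after the 75th percentile shift 1 was called higher in A-/G+. Replicate 3 was the highest A-/G+ array in 8 of the 10 genes, beside 26.1% of all probes. The summed signal of the 10 genes was 50986 to 90877 in A+/G+ and 14270 to 38539 in A-/G+. Hbb-b2, a beta globin gene whose near-identical copies may share its signal, had the largest difference (3.70, limma adjusted p = 0.135), with 6.41, 6.01 and 9.98 in A-/G+. Without replicate 3 of A-/G+, 6 of the 10 were called higher in A+/G+, beside 7.97% of all probes.

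Of the 13 genes of microglia and macrophages 1, Tmem119, was called higher in A+/G+ (limma adjusted p = 0.0207), beside 4.65% of all probes. The median difference was -0.15, and the summed signals of the fractions overlapped (1728 to 2724 and 2164 to 4685). Aif1, which encodes IBA1, differed by 1.51 (limma adjusted p = 0.463). None of the 9 platelet genes passed in limma or in the methods' t-test, 1 did at an unadjusted p under 0.05 in each, and 6 were not well above background on any array. Gp6, a collagen receptor of platelets (difference -1.20, limma adjusted p = 0.515), was among those 6. Of the 10 astroglial genes 3 were called in the direction of A+/G+ (Atp1b2, S100b and Gfap) and 2 in that of A-/G+ (Aldh1l1 and Gdf10), beside 4.65% and 4.64% of all probes. None was dim on any of the 6 arrays. Gfap, the astrocyte filament protein, differed by 3.03 (limma adjusted p = 0.0182) and Gdf10, a growth factor gene, by -3.00 (limma adjusted p = 0.0074). Replicate 3 was the highest A-/G+ array in 0 of the 10 astroglial genes, beside 35.0% of probes well above background on all 6 arrays. It was the lowest in 8, a count for which that share was not computed.

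**Figure D4:**
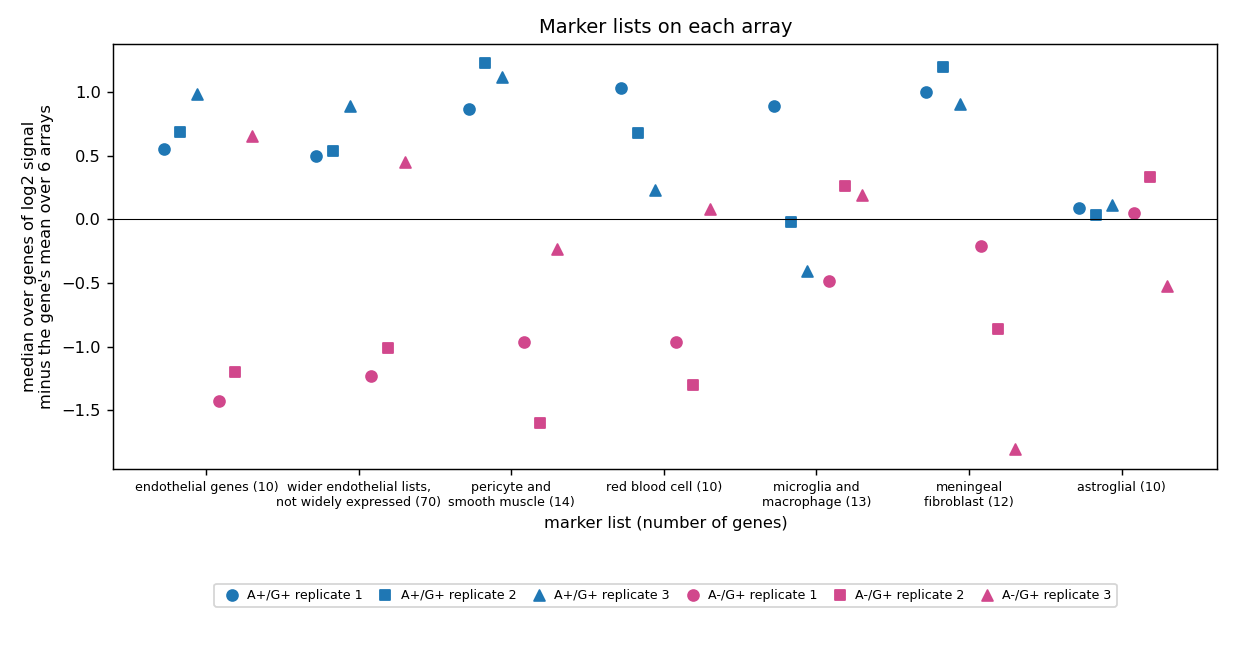
For each array, the median over the genes of a list of the log2 signal minus the gene's mean over the 6 arrays (vertical axis), for the 10 endothelial genes, the 70 genes of the wider lists not marked as widely expressed and 5 lists of other cells (horizontal axis). Replicate 3 of A-/G+ stands at 0.66 for the endothelial genes, close to the A+/G+ arrays at 0.55, 0.68 and 0.99, and at -1.81 for the meningeal genes, the lowest of all arrays.

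The sequence before the start of the gene was available for 7 of the 10 genes in the table of promoters (RefSeq, GRCm38.p6), all except Pecam1, Cdh5 and Esam. The brightest probes of the 10 genes were all lower on replicates 1 and 2 of A-/G+ than on every A+/G+ array. Replicate 3 of A-/G+ differed between the genes and was below every A+/G+ array in 3 of them. Whether promoter sequence has a part in these shared low arrays was not tested. The 250 bases before the start were searched on both strands for the core of the site of ETS factors. This family has a known part in endothelial gene expression, and the forms AGGAAG and CGGAAG were used. The GATA site AGATAA, the SP1 box GGGCGG and the TATA box TATAAA were searched as well. The ETS forms differ in their first base and cannot match at the same place. AGGAAG was found before Eng, Emcn, Tie1 and Flt1, in 4 of 7 windows and in 29.5% of the 32851 windows of the table. CGGAAG was found before Tie1 alone, in 1 of 7 (13.6% of all windows), so that either form was present in 4 of 7 beside 39.2%. The SP1 box was found before Kdr, Flt1 and Cldn5, in 3 of 7 (32.7%), the TATA box before Flt1 alone (12.4%), and the GATA site in 0 of 7 (9.99%). These matches are descriptions of letters and say nothing of a bound factor.

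Cldn5, Eng and Tie1 are taken as examples of a junction protein, a co-receptor and a receptor. In these genes, replicates 1 and 2 of A-/G+ were below the A+/G+ range and replicate 3 was within it. Their windows are shown with the matched letters in capitals, 5' to 3' on the strand of the gene. They lie in GRCm38.p6 at chr16:18776597-18776846 on the plus strand for Cldn5, chr2:32646345-32646594 on the plus strand for Eng and chr4:118489850-118490099 on the minus strand for Tie1:
Cldn5: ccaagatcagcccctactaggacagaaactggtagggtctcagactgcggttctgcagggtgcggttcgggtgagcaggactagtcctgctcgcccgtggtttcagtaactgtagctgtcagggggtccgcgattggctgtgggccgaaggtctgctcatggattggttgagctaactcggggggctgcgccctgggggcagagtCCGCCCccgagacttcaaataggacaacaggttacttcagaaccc
Eng: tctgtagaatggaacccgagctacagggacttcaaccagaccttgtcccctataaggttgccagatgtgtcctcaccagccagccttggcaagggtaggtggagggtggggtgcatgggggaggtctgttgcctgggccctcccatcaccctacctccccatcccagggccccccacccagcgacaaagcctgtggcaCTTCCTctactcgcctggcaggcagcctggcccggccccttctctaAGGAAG
Tie1: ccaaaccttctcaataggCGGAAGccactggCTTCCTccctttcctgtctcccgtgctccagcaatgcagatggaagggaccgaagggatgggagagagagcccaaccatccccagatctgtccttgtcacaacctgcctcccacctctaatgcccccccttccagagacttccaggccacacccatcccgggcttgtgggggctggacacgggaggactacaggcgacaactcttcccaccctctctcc
The capitals are an SP1 box in Cldn5, AGGAAG in Eng, once on either strand, and both ETS forms in Tie1. The 3 windows hold 59.6%, 62.4% and 60.4% G and C, respectively.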

How the data were processed

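RNA of 6 samples was hybridized to 1-color Agilent mouse arrays with 62976 spots. The authors deposited for each array the intensity of every spot after background correction by Agilent Feature Extraction 10.7.3.1, and a table of log2 values that the authors had quantile normalized, with 38 empty cells, used as an alternative. Which background step the authors used is not given in the sources used here.

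Intensities were taken to the log2 scale without control spots and spots marked as outliers (118 to 250 per array), quantile normalized, and averaged over the spots of a probe. The fractions were compared over 55681 probes with limma 3.58.1 in R 4.3.3 without a filter on dim probes; a probe was called at a Benjamini-Hochberg adjusted p of at most 0.05. The study's further limit of 4-fold between medians is given where it matters. The probe with the highest mean signal stands for a gene. A probe that no array of a group showed well above background has only a limit there, and its fold is a lower bound (at least N-fold). For the bound each dim array was set to the larger of its own signal and the array's lowest well measured signal, and the mean of the bright group was taken over the mean of these. The number of arrays limits the precision.

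The 10 genes, the 13 marker lists and the tests were chosen with earlier results of these data known. Named are all 10 genes with all probes, the called genes of the 7 wider lists (at most 4 per list and direction) with the brightest gene not called (for 1 list it is not reported here), the gene with the largest difference of each of the 6 lists of other cells, the 5 genes of closest pattern, Atp1b2 and Slc1a3. Abcg2 and the further called genes of the lists of other cells were named after their values were seen. Gene names and positions follow the annotation of the array (mm9). Alternatives were the methods' t-test, a filter on dim probes (25177 kept), the authors' log2 table, normexp background correction (offset 50), a shift to the 75th percentile, limma's trend and robust options, averaging the probes of a gene, keeping outlier spots, blocking by replicate number and leaving out single arrays. A slide block was not possible, as no slide held both fractions.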

Additional observations from a re-analysis of the deposited data

How the results depend on the processing

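No difference of the 10 endothelial genes changed direction under the 15 alternatives. Cdh5 was called under 10 of them, with an adjusted p between 0.002 and 0.0852, and lost the call under the replicate block and without any 1 A+/G+ array or replicate 2 of A-/G+. Leaving out 1 array gave 0 to 7 called endothelial genes, and 7 only without replicate 3 of A-/G+, where Cldn5, Kdr, Flt1, Tie1, Emcn and Eng joined Cdh5; the cause of the other losses was not tested beyond the smaller number of arrays. The count was 0 without any A+/G+ array or replicate 2 of A-/G+, each with 1 gene at an unadjusted p under 0.05 in limma.

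For the 7 wider lists, the 11 genes called higher in A+/G+ became 20 with the filter on dim probes, 4 with the methods' t-test, 22 with normexp and 2 to 55 without 1 array, and the 4 called higher in A-/G+ became 2 with the t-test and 1 to 10 without 1 array. For the 6 lists of other cells, the 15 called higher in A+/G+ became 29, 6 and 30 under the same 3 alternatives and 5 to 31 without 1 array. The 2 called higher in A-/G+ became 1 in the authors' table, 4 with the filter, 1 with the t-test, 4 with normexp and 1 to 4 without 1 array. The median difference of the wider lists, 1.16, was 0.74 after the 75th percentile shift and 0.43 with normexp. For the other cells it was 1.29, and 0.73, 0.38 and, with the filter, 1.61, and 1.09 to 1.40 without 1 array. The cause of these shifts was not tested.

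The labels do not say whether samples with the same replicate number form pairs. The deviations of same-numbered samples from their group means correlated at 0.2, 0.11 and -0.11 over 17944 probes. Those of samples with different numbers correlated at -0.24 to 0.17, so these values do not settle the question. With the number as a replicate block, limma called 0 of the 10 endothelial genes, 0 in both directions of the wider lists and 0 in both directions of the other cells, with 3, 44 and 7, and 34 and 4 genes at an unadjusted p under 0.05. Signal over background limits Tek, Esam, Emcn and Pecam1, of which replicates 1 and 2 of A-/G+ give only a limit.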
